A study of Homo sapiens with 2 samples.

Results

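HDAC2 is a class I histone deacetylase, an enzyme that removes acetyl groups from lysines of histone tails. With its close paralog HDAC1 it forms the catalytic core of the NuRD, SIN3, CoREST and MiDAC co-repressor complexes, which transcription factors bring to promoters and enhancers. Each paralog can stand in for the other in many cell types, and drugs that inhibit both enzymes are known to raise genes such as CDKN1A and H1F0. The cells described here carried 1 gRNA against HDAC2 and were set against cells with 1 non-targeting gRNA of the same culture. Of 5744 cells in all, 3189 had exactly 1 gRNA called at more than 3 unique molecular identifiers (UMIs), and 182 of these carried an HDAC2 gRNA (79 gRNA1, 31 gRNA2, 18 gRNA3 and 54 gRNA4). The control was 696 cells with 1 of 20 non-targeting gRNAs, and the paralog comparison used 115 cells with 1 of 4 HDAC1 gRNAs.

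All cells came from a single CROP-seq experiment, in which the gRNA is read from a polyadenylated transcript of each cell. A549 lung adenocarcinoma cells with a doxycycline-inducible Cas9 (called tamoxifen-inducible in the design text) were transduced with a lentiviral pool of 120 gRNAs, 100 against 25 genes and 20 non-targeting, at about 0.3 virus particles per cell. They were selected with puromycin, given Cas9 for 2 days and grown for 5 more days, and this holds for HDAC2, HDAC1 and non-targeting cells alike. There was 1 culture and 1 library of each kind, so gRNA groups of at least 10 cells served as replicates (4 HDAC2, 4 HDAC1 and 15 non-targeting groups), and every p-value measures the spread between gRNA groups of this culture, not between cultures. Edits at the HDAC2 locus and HDAC2 protein were not measured here, and the gRNA call tolerates a mismatch, so a cell with a mutated gRNA can be counted as carrying an intact one.

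Median depth was similar on both sides, at 34008 UMIs per HDAC2 gRNA cell and 33582 per non-targeting cell. Cells under 10000 UMIs were more frequent in the control, with 46 of 696 cells against 4 of 182 HDAC2 gRNA cells. The HDAC2 groups held 635223 to 2854256 UMIs. The epithelial markers of the line, mainly keratins, summed to 14369 to 19640.3 UMIs per 1000000 UMIs of the group (CPM) in the HDAC2 groups and 11413 to 19614 CPM in the non-targeting groups. Of the 10 lung epithelial markers, NKX2-1 and SFTPB had 0 UMIs in HDAC2 gRNA cells, and only SFTPB also had 0 in the larger pool of control cells. No HDAC2 gRNA cell had UMIs of 3 or more fibroblast, immune or endothelial markers, and 2 of 182 had so many of the 7 markers of the HEK293T virus producer line, against 4 of 696 control cells.

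The HDAC2 transcript was at 83.4% of its control level in HDAC2 gRNA cells (exact 95% interval 72.4 to 95.7%, counting error only), with large differences between the 4 gRNAs. HDAC2 lies on the minus strand of chromosome 6 (GRCh38, chr6:113933028-114011308, GENCODE 44). The 4 target sites lie in the order gRNA1 to gRNA4, with gRNA2, gRNA3 and gRNA4 at 14773, 21841 and 29157 bases from gRNA1 by the positions in the gRNA identifiers. These positions fall outside HDAC2 on GRCh38 and so belong to another build, which is why no exon is given for them.

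HDAC2 stood at 42.4 CPM in gRNA1 cells (121 UMIs), 30.6 CPM in gRNA2 cells (38 UMIs), 20.5 CPM in gRNA3 cells (13 UMIs) and 39.4 CPM in gRNA4 cells (79 UMIs). In the 15 non-targeting groups it ran from 31.2 to 50.6 CPM with a median of 44.5 CPM. Cells with gRNA2 and gRNA3 thus lay below every non-targeting group, and cells with gRNA1 and gRNA4 lay inside their range. As a share of the pooled control, HDAC2 was at 45.8% with gRNA3 (24.3 to 78.6%), 68.6% with gRNA2 (48.3 to 94.7%), 88.1% with gRNA4 (69.2 to 111%) and 94.9% with gRNA1 (78.0 to 115%). The intervals of gRNA1 and gRNA4 included 100%. The 13 UMIs of the gRNA3 group came from 7 of its 18 cells, so the lowest level rests on the fewest cells.

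Over gRNA groups, the mean HDAC2 level was 33.2 ± 9.85 CPM with HDAC2 gRNAs (SD, n = 4) and 43.7 ± 5.22 CPM with non-targeting gRNAs (SD, n = 15). The difference of the mean log2(CPM + 1) was -0.43, and an exact two-sided permutation test over the 3876 assignments of the groups gave p = 0.0101 (adjusted p = 0.0201 over the 2 comparisons of HDAC2 made). Without gRNA3 the difference was -0.22 and the exact permutation p = 0.0674, so the call rests on that group, and without gRNA2 it was -0.41 with p = 0.0355 (both not adjusted). In the edgeR quasi-likelihood fit over all genes, which weights groups by depth, HDAC2 had a log2 fold change of -0.28 (SE 0.12, 95% interval -0.51 to -0.04) and an adjusted p of 0.97.

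**Figure D1:**
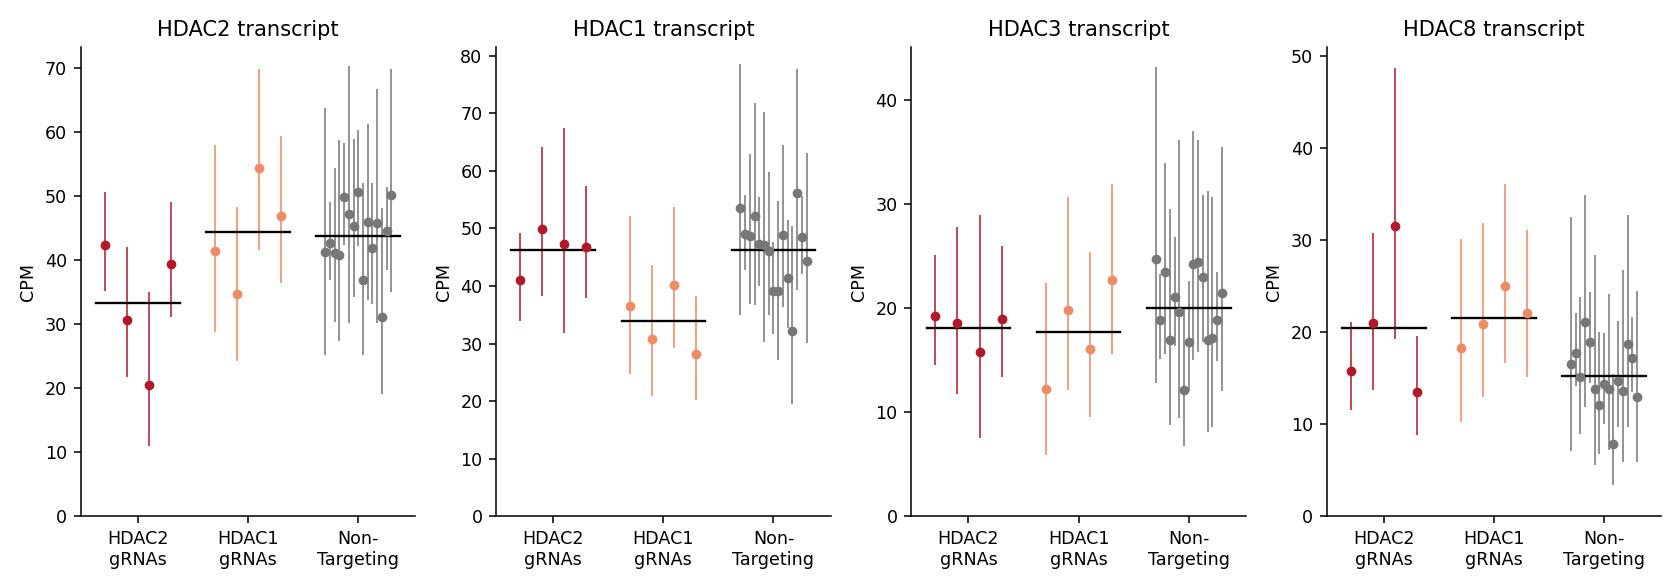
Level of the 4 class I deacetylase transcripts in CPM (vertical axes, from 0) in each gRNA group: 4 HDAC2 gRNAs in order 1 to 4, 4 HDAC1 gRNAs and 15 non-targeting gRNAs. Points are groups, vertical lines are exact 95% Poisson intervals (counting error only) and horizontal lines are group means. HDAC2 in HDAC2 gRNA cells spans 20.5 to 42.4 CPM. The points of gRNA2 and gRNA3 lie below all non-targeting points, and their intervals reach into the range of these points.

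The paralogs did not stand apart in HDAC2 gRNA cells. HDAC1 had 41.0, 49.98, 47.2 and 46.8 CPM in cells with gRNA1 to gRNA4, against 32.3 to 56.1 CPM in non-targeting groups (median 47.3 CPM). Its edgeR log2 fold change was -0.01 (95% interval -0.21 to 0.20). HDAC3, the catalytic subunit of the NCoR and SMRT complexes, had 15.7 to 19.3 CPM in HDAC2 groups and 12.1 to 24.7 CPM in non-targeting groups, with a log2 fold change of -0.07 (SE 0.15). HDAC8, a class I enzyme that works outside these complexes, had 15.8, 21.0, 31.5 and 13.5 CPM in the HDAC2 groups and 7.83 to 21.1 CPM in the non-targeting groups. Only the gRNA3 cells were above that range, and the log2 fold change was 0.19 (SE 0.17). In the edgeR fit none of the 4 class I genes passed.

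In HDAC1 gRNA cells, HDAC2 averaged 44.3 ± 8.31 CPM (SD, n = 4). Set against these, HDAC2 gRNA groups differed by -0.44 in mean log2(CPM + 1), and the exact two-sided permutation p was 0.171. There are only 70 assignments of 4 against 4 groups, which limits how small this p can be. HDAC1, with 41.0 to 49.98 CPM in HDAC2 gRNA cells, had 28.2 to 40.1 CPM in HDAC1 gRNA cells. These ranges did not overlap, and the log2 fold change of HDAC2 over HDAC1 gRNA groups was 0.47 (SE 0.15) with an edgeR adjusted p of 0.689.

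Next, all genes were compared between HDAC2 and non-targeting gRNA groups. No gene passed an adjusted p of 0.05, with 0 of 8817 genes tested (0%) called by edgeR and 0 by DESeq2. At an unadjusted p under 0.05 there were 422 genes by edgeR (4.79%), of which 197 were higher (2.23%) and 225 lower (2.55%) in HDAC2 gRNA groups, and 299 genes by DESeq2. The smallest edgeR adjusted p was 0.111. The median gene had a 95% interval of ± 0.30 on the log2 scale, a 1.23-fold difference, and the interval lay within ± 1 for 98.0% and within ± 0.5 for 65.4% of genes.

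**Figure D2:**
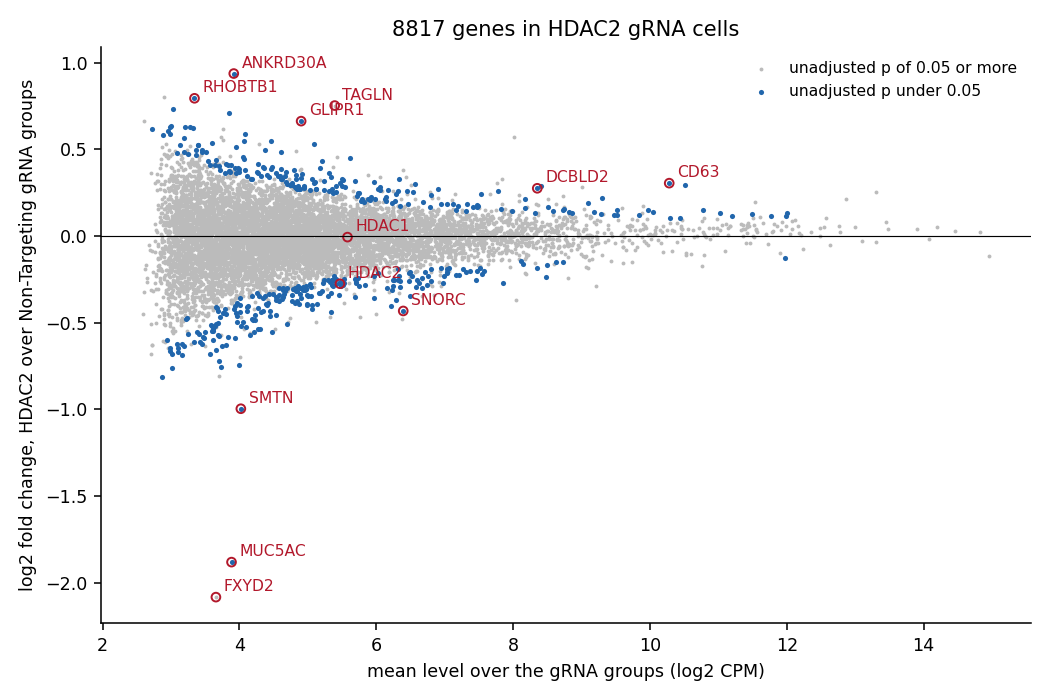
Log2 fold change of HDAC2 over non-targeting gRNA groups (vertical axis) against the mean level over groups (horizontal axis, log2 CPM) for the 8817 genes tested. Each point is a gene, blue where the unadjusted edgeR p was under 0.05 (422 genes), and named genes are circled. No gene passed an adjusted p of 0.05, and the widest scatter is among genes of low level.

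The same fit run for each other target gives a scale for this count (added after the data were seen). Of 23 targets with at least 2 gRNA groups, 20 had 0 genes called, and the 3 others were RPL18 (23 genes), DNMT1 (1 gene) and TRMT112 (1 gene). The share of genes at an unadjusted p under 0.05 ran from 2.95 to 11.8% over the targets, and 10 of the 22 other targets had a higher share than HDAC2. All these comparisons share the non-targeting groups. RPL18 and TRMT112 had 2 gRNA groups, DNMT1 had 3 and HDAC2 had 4, so the counts and shares of the targets are not strictly comparable.

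Among the genes of lowest p, those higher in level in HDAC2 gRNA cells were led by CD63, a tetraspanin of late endosomes and exosomes. CD63 had 1274, 1450.2, 1494 and 1498 CPM in cells with gRNA1 to gRNA4, against 989 to 1368 CPM in non-targeting groups (median 1140.2 CPM). Cells with gRNA2, gRNA3 and gRNA4 were above all non-targeting groups, and gRNA1 cells lay within their range. The log2 fold change was 0.31 (SE 0.07) with an edgeR adjusted p of 0.213. CD63 passed in 3 of the alternative fits, without gRNA1 cells (0.36, adjusted p = 0.0489), without the non-targeting group CTRL00018 (adjusted p = 0.036) and with the gRNA called by its share of the cell's gRNA UMIs (0.31, adjusted p = 0.0475). Some other fits came near the threshold, with an edgeR adjusted p of 0.0531 without the filter on low counts and 0.0632 without CTRL00484. Others were far from it, at 0.9995 without gRNA3 cells, 0.887 without gRNA4 and 0.819 without gRNA2. In a joint fit of all gRNA groups of the screen it was 0.99997.

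DCBLD2, a transmembrane receptor-like protein, had 375, 390.2, 359 and 348 CPM in the HDAC2 groups and 258 to 362 CPM in the non-targeting groups, a log2 fold change of 0.28 (SE 0.07, edgeR adjusted p = 0.271). RHOBTB3 had 49.0 to 67.3 CPM with HDAC2 gRNAs and 28.2 to 52.8 CPM with non-targeting gRNAs (log2 fold change 0.45, SE 0.11). RHOBTB1 had 14.0, 12.9, 15.7 and 11.0 CPM with HDAC2 gRNAs and at most 9.86 CPM in any non-targeting group (log2 fold change 0.79, SE 0.20, edgeR adjusted p = 0.365).

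GLIPR1, a glioma pathogenesis-related protein, had 31.5, 45.1, 28.3 and 49.3 CPM in HDAC2 groups and 9.83 to 39.1 CPM in non-targeting groups. HES1, a transcriptional repressor downstream of Notch, had 39.2, 58.0, 52.0 and 30.9 CPM in HDAC2 groups, against 18.4 to 37.3 CPM in non-targeting groups. Their log2 fold changes were 0.66 (SE 0.16) and 0.53 (SE 0.14), with edgeR adjusted p of 0.303 and 0.613. In both genes 2 or more HDAC2 groups exceeded every non-targeting group and at least 1 did not. The other genes among the 10 of lowest p on this side were PQLC1, NFKBIZ (a nuclear regulator of NF-κB), MLEC (a lectin of the endoplasmic reticulum) and PEBP1 (an inhibitor of Raf kinase). Their log2 fold changes were 0.50, 0.55, 0.24 and 0.19.

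On the lower side, SMTN, which encodes the actin-associated protein smoothelin, had the lowest p of all genes. It stood at 8.76, 10.5, 3.15 and 7.97 CPM in cells with gRNA1 to gRNA4, against 6.79 to 22.5 CPM in non-targeting groups (median 17.8 CPM). All 4 HDAC2 groups were under the non-targeting median, and only gRNA3 cells, with 2 UMIs, were under the lowest group. The log2 fold change was -0.997 (SE 0.22, edgeR adjusted p = 0.111). Over pooled cells there were 56 SMTN UMIs with HDAC2 gRNAs and 430 with non-targeting gRNAs, a ratio of 0.486 (0.361 to 0.644). SMTN passed when the non-targeting group CTRL00196 (adjusted p = 0.0452) or CTRL00637 (adjusted p = 0.0403) was left out. With any other non-targeting group left out, its edgeR adjusted p ran from 0.0632 (CTRL00484) to 0.272 (CTRL00405). It was 0.137 without gRNA2, 0.312 without gRNA1, 0.4503 without gRNA3 and 0.5004 without gRNA4. In the joint fit of all gRNA groups of the screen, the edgeR adjusted p of SMTN was 0.9099.

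The other genes of lowest p on this side had smaller differences. MPRIP, which anchors myosin phosphatase to actin, had 69.4, 62.1, 36.2 and 64.3 CPM in HDAC2 groups and 68.8 to 105 CPM in non-targeting groups. TGOLN2, a protein of the trans-Golgi network, had 86.2, 86.3, 80.3 and 75.2 CPM with HDAC2 gRNAs and at least 88.3 CPM in every non-targeting group. Neither passed the test, with log2 fold changes of -0.37 (SE 0.11) and -0.27 (SE 0.08). SNORC, a transmembrane proteoglycan, had 53.2 to 70.8 CPM with HDAC2 gRNAs and 52.1 to 107 CPM with non-targeting gRNAs (log2 fold change -0.43, SE 0.12). With gRNA groups of at least 20 cells only, SNORC passed (log2 fold change -0.53, edgeR adjusted p = 0.0298). That fit leaves out gRNA3 and keeps 9 of the 15 non-targeting groups. When 1 HDAC2 gRNA at a time was left out, gRNA3 included, the edgeR adjusted p of SNORC was 0.613 or higher.

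Metabolic enzymes among these genes were PFKFB3, which sets glycolytic flux (log2 fold change -0.44, SE 0.13), and PTDSS1, a phosphatidylserine synthase (-0.55, SE 0.17). PTDSS1 was also the gene of lowest p between HDAC2 and HDAC1 gRNA groups, at 9.45 to 19.3 CPM with HDAC2 gRNAs and 18.3 to 41.7 CPM with HDAC1 gRNAs. DNAJC9, a co-chaperone that binds histones, had 65.9, 42.7, 47.2 and 62.3 CPM with HDAC2 gRNAs and 54.2 to 117 CPM with non-targeting gRNAs. Its log2 fold change was -0.41 (SE 0.12). LRRC45 of the centrosome, the membrane protein CTXN1 and IMP4 of ribosomal RNA processing had values of -0.51, -0.57 and -0.31.

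**Figure D3:**
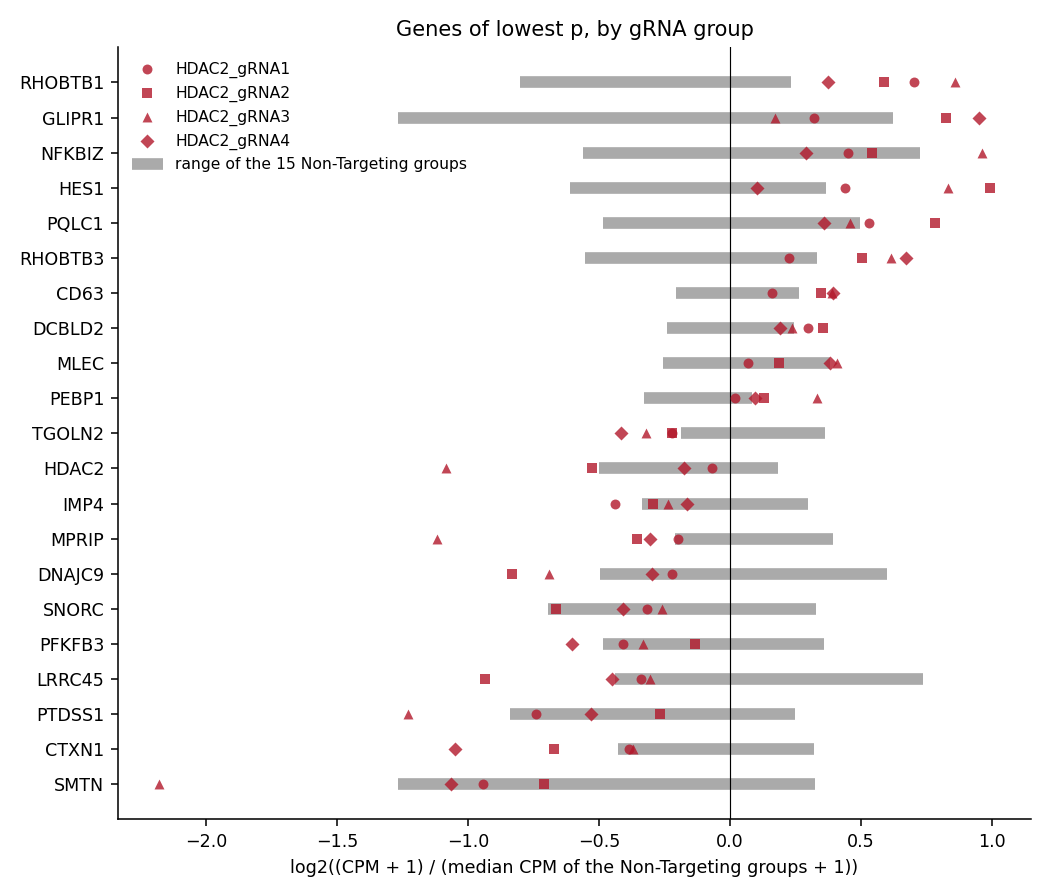
Level of HDAC2 and of the 20 genes of lowest p (10 on each side) in each HDAC2 gRNA group, as log2 of CPM + 1 over the median non-targeting group (horizontal axis). Red symbols are the 4 HDAC2 gRNAs and grey bars the range of the 15 non-targeting groups. The genes were chosen for their p in this comparison, and only RHOBTB1 and TGOLN2 have all 4 gRNAs outside the grey bar.

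Counting genes whose groups did not overlap, 2 genes had all 4 HDAC2 groups above every non-targeting group (0.0227% of those tested) and 2 had all 4 below (0.0227%). The first were RHOBTB1 and RPN2, a subunit of the oligosaccharyltransferase complex, with 147 to 156 CPM in HDAC2 groups and 119 to 147 CPM in non-targeting groups. The others were TGOLN2 and MITD1, a protein of cell division, with 15.7 to 18.6 CPM in HDAC2 groups and 19.6 to 33.9 CPM in non-targeting groups. The log2 fold changes of RPN2 (0.15) and MITD1 (-0.37) had edgeR adjusted p of 0.97. Of the 3876 assignments of 4 and 15 groups, 1 places the 4 groups above all others and 1 below. The counts seen are near that share, so they are not a result about these genes.

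The partner proteins of HDAC2 were then described by complex. Of 10 NuRD subunits tested, 15 SIN3 subunits, 9 CoREST subunits and 2 MiDAC subunits, none passed, against 0% of all genes. The median log2 fold changes were 0.04, 0.04, 0.00 and 0.06 for these complexes and 0.00 for all genes tested. The only subunit with an unadjusted p under 0.05 was SUDS3, a SIN3 subunit, with 50.5, 49.2, 61.4 and 50.8 CPM in HDAC2 groups and 20.4 to 51.1 CPM in non-targeting groups (log2 fold change 0.33, SE 0.11, edgeR adjusted p = 0.97). CHD4, the remodelling ATPase of NuRD, had 59.3 to 77.1 CPM with HDAC2 gRNAs and 54.99 to 85.7 CPM with non-targeting gRNAs. Among the 9 other deacetylases tested, none passed, and the lowest p belonged to HDAC6, a cytoplasmic tubulin deacetylase (log2 fold change -0.43, SE 0.22).

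Genes that deacetylase inhibitors are known to raise had no shared shift. Of 18 in the files, 10 had enough UMIs to be tested, 5 had a positive and 5 a negative log2 fold change, and the median was 0.00. CDKN1A, the cell cycle inhibitor p21, had 99.9, 104, 70.8 and 63.3 CPM in HDAC2 groups and 32.7 to 150.4 CPM in non-targeting groups (log2 fold change -0.25, SE 0.24). CLU and GSN, which encode clusterin and gelsolin, had values of 0.18 and 0.13. CDKN1C, a further cell cycle inhibitor of this list, was under the filter on low counts. It had 15, 16, 2 and 12 UMIs in cells with gRNA1 to gRNA4 and 93 in all control cells, a pooled ratio of 1.81 (1.24 to 2.61, counting error only). DHRS2, also of this list and under the filter, went the other way, with a pooled ratio of 0.137. It had 5 UMIs against 136 in control cells, 124 of them in 1 cell.

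Of 7 tested genes that inhibitors are known to lower, 2 had an unadjusted p under 0.05, both lower, against 2.55% of all genes. TYMS, thymidylate synthase, had 108, 116, 112 and 132 CPM in HDAC2 groups and 109.6 to 163 CPM in non-targeting groups (log2 fold change -0.19, SE 0.08). BIRC5, the mitotic protein survivin, had 96.3, 62.1, 97.6 and 96.2 CPM in HDAC2 groups, against 53.6 to 151 CPM in non-targeting groups (log2 fold change -0.28, SE 0.13). Neither passed after adjustment (edgeR adjusted p = 0.97). The 5 tested neuronal genes that REST and CoREST are known to repress had a median of 0.05, and SNAP25, a synaptic fusion protein, had 4.72 to 12.3 CPM in HDAC2 groups and 0 to 13.8 CPM in non-targeting groups.

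Over 25 gene lists with 364 different genes tested, 0 genes passed and 18 (4.95%) had an unadjusted edgeR p under 0.05. Cell cycle lists had the most members on the lower side. Of 54 G2/M genes, 49 had a negative log2 fold change and 8 an unadjusted p under 0.05, all lower, with a median of -0.19, beside 2.55% lower and a median of 0.00 over all genes. AURKB, a mitotic kinase, had 49.8, 31.4, 45.7 and 62.8 CPM in HDAC2 groups and 39.2 to 81.3 CPM in non-targeting groups (log2 fold change -0.36, SE 0.13). ANLN, an actin-binding protein of cytokinesis, had 22.0 to 28.9 CPM in HDAC2 groups and 19.6 to 47.9 CPM in non-targeting groups.

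The summed level of the G2/M genes was 4355, 2853, 3034 and 4052 CPM in cells with gRNA1 to gRNA4, against 2789.6 to 5973 CPM in the non-targeting groups (median 4073 CPM). All 4 values lay within the range of the controls, with gRNA2 and gRNA3 near its lower end and gRNA1 and gRNA4 near its median. S phase genes had a median of -0.14, with 2 of 42 at an unadjusted p under 0.05, TYMS and UNG, a DNA glycosylase. DNAJC9, BIRC5 and TYMS are themselves more abundant in cycling cells, and the part of the cell cycle in their values was not tested.

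Immediate early genes, which growth factors and handling of cells induce within minutes, had 13 of 16 members with a positive value and a median of 0.10. IER3, IER2 and FOS had an unadjusted p under 0.05, all higher, beside 2.23% of all genes. IER3 had 300.4 to 324 CPM in HDAC2 groups and 200.3 to 318 CPM in non-targeting groups (log2 fold change 0.22, SE 0.08). FOS had 124 to 140.3 CPM in HDAC2 groups and 67.9 to 146 CPM in non-targeting groups. None passed after adjustment (edgeR adjusted p = 0.97). The summed level of the list was 1806, 1910, 1785 and 1795 CPM in cells with gRNA1 to gRNA4. All 4 sums lay within the 1259 to 2031 CPM of the non-targeting groups (median 1709 CPM).

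The 22 tested p53 targets, a readout of the DNA damage that a Cas9 cut can give, had a median of -0.05 and none at an unadjusted p under 0.05. The medians of interferon-stimulated genes, antigen presentation genes, NRF2 targets, cholesterol synthesis genes and ATF4 stress genes lay between -0.05 and 0.04. None of the 20, 9, 24, 21 and 18 members tested in these lists had an unadjusted p under 0.05. Of 12 epithelial and 16 mesenchymal genes, 1 did, CYR61, a matricellular protein (log2 fold change 0.27, SE 0.13).

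**Figure D4:**
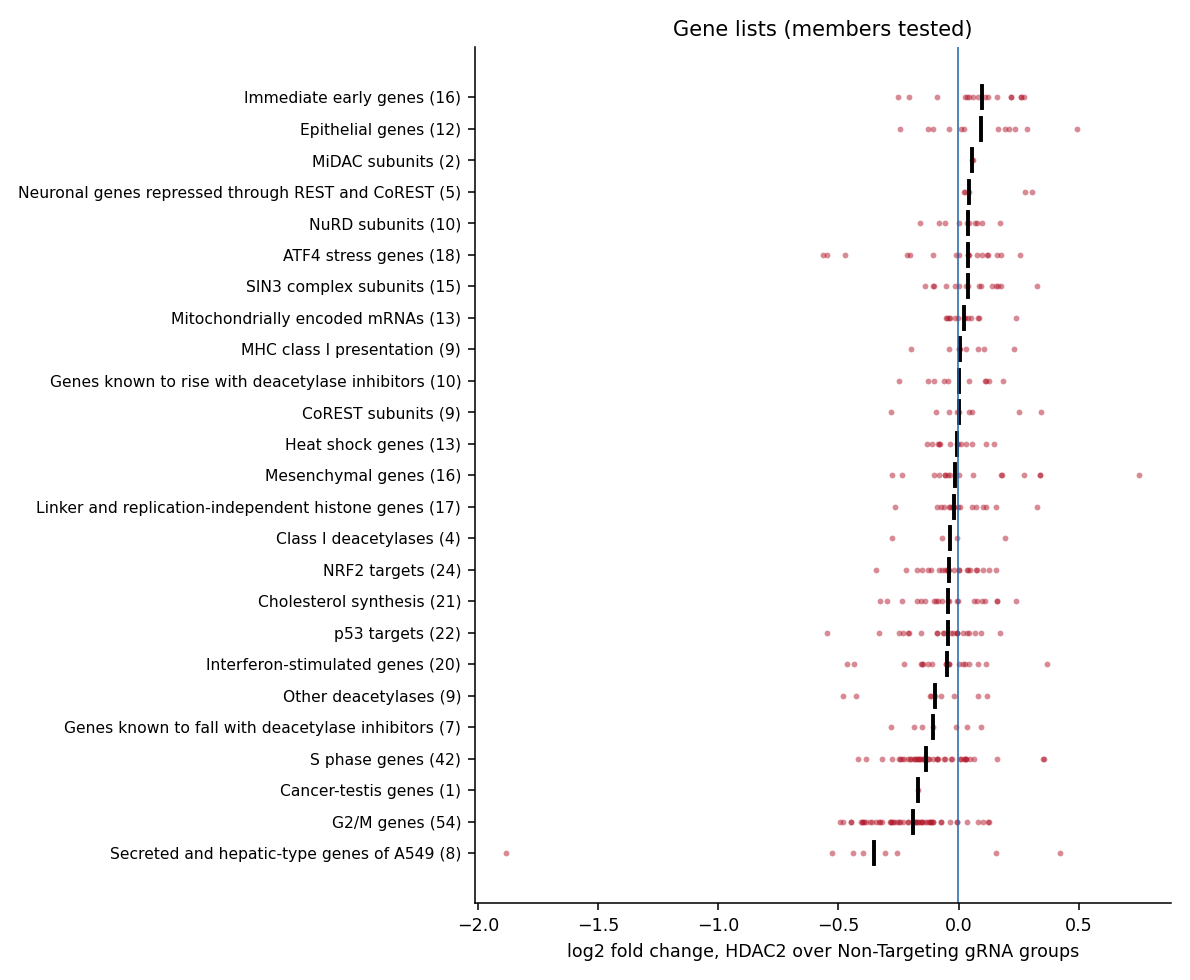
Log2 fold change of HDAC2 over non-targeting gRNA groups (horizontal axis) for the members of 25 gene lists, with the number of members tested in brackets. Points are genes, black bars list medians and the blue line the median of all 8817 genes. Medians run from -0.35 for secreted and hepatic-type genes to 0.10 for immediate early genes, and no member passed an adjusted p of 0.05.

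Pooled cells were also compared without gRNA groups. Of 11553 genes that reached 50 UMIs in 1 or both pools, 97.3% had a log2 ratio (1 CPM added) within ± 0.5, 79 were above 0.5 and 231 below -0.5. Beyond 1 there were 8 genes, all lower in HDAC2 gRNA cells. The control pool held 25154674 UMIs and the HDAC2 pool 6737008, so 50 UMIs is a lower CPM in control cells. Genes low in HDAC2 gRNA cells could thus enter more easily than genes low in control cells. The counts of both sides therefore cannot be set against each other. DHRS2, a dehydrogenase that deacetylase inhibitors induce, had 5 UMIs in HDAC2 gRNA cells and 136 in non-targeting cells, of which 127 lay in the group CTRL00196 and 124 in 1 cell. LINC01647 had 0 UMIs in HDAC2 gRNA cells and 67 in non-targeting cells, all in 1 cell. In both genes 1 control cell held most or all of the UMIs.

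MUC5AC, a gel-forming airway mucin, was spread over more cells. It had 15, 4, 1 and 9 UMIs in cells with gRNA1 to gRNA4, or 1.57 to 5.26 CPM, against 0 to 36.9 CPM in non-targeting groups (median 14.4 CPM). With UMIs in 18 of 182 HDAC2 gRNA cells and 137 of 696 control cells, its pooled ratio was 0.273 (0.180 to 0.398, counting error only). All HDAC2 groups were low, yet the control groups ranged from 0 upwards, and the edgeR log2 fold change of -1.88 had an SE of 0.81 and an adjusted p of 0.97. MYH11, a smooth muscle myosin, had 1 UMI in HDAC2 gRNA cells and 128 in control cells, 66 of them in the group CTRL00080.

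On the higher side, TAGLN, the smooth muscle actin-binding protein transgelin, had 28.4, 33.9, 37.8 and 121 CPM in the HDAC2 groups and 14.0 to 81.7 CPM in the non-targeting groups. In gRNA4 cells 195 of its 242 UMIs came from 1 cell. ANKRD30A, an ankyrin repeat protein known from breast tissue, had 29.8, 18.5, 22.0 and 13.5 CPM in HDAC2 groups and 3.35 to 34.4 CPM in non-targeting groups (median 9.96 CPM). It was in 63 of 182 HDAC2 gRNA cells and 152 of 696 control cells, with a pooled ratio of 2.01 (1.63 to 2.46). Its log2 fold change was 0.94 (SE 0.32, edgeR adjusted p = 0.97), and it passed only in the fit of groups with at least 20 cells.

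Neighbours of HDAC2 were examined because a Cas9 cut can be followed by loss of the chromosome arm beyond it. MARCKS, the nearest well expressed gene, lies before HDAC2, on the centromere side, and so does not bear on loss of the part beyond. It had 994 UMIs in HDAC2 gRNA cells and 3682 in control cells, a ratio of 1.01 (0.939 to 1.08). The 138 genes between HDAC2 and the end of the long arm had a median log2 ratio of -0.01, and all genes had -0.02. By gRNA this median ran from -0.06 to 0.04, inside the -0.14 to 0.10 of the non-targeting groups. The 422 genes of chromosome 6 before HDAC2 had a median of 0.00.

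HDAC2 and HDAC1 gRNA cells were compared directly in a fit that also held the non-targeting groups. edgeR called 0 of 8781 genes (0%), with 520 (5.92%) at an unadjusted p under 0.05, a smallest adjusted p of 0.499 for PTDSS1 and 0 calls by DESeq2. CD63 stood at 1274 to 1498 CPM with HDAC2 gRNAs and 963 to 1470.4 CPM with HDAC1 gRNAs (log2 fold change 0.31, SE 0.10, edgeR adjusted p = 0.73). SMTN had 3.15 to 10.5 CPM with HDAC2 gRNAs and 8.53 to 15.2 CPM with HDAC1 gRNAs (-0.65, SE 0.28). Both differences missed the threshold, which does not show that the paralogs act alike.

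Finally, 44 of the 226 cells with a called HDAC2 gRNA held another called gRNA and were left out above. Their number differed strongly by gRNA, at 10 of 89 cells for gRNA1, 8 of 39 for gRNA2, 24 of 42 for gRNA3 and 2 of 56 for gRNA4. The share of gRNA3 was 57.1% (exact 95% interval 41.0 to 72.3%), the third highest among 84 gRNAs with at least 10 called cells, whose median was 11.4%. In 14 cells gRNA3 was joined by the non-targeting gRNA CTRL00637 alone, in 1 more by CTRL00637 and MTF2_gRNA3, and in 5 by HELLS_gRNA3 alone. The 14 cells with only gRNA3 and CTRL00637 had a median of 40350.5 UMIs, against 32059.5 in cells with gRNA3 alone and 40842 with CTRL00637 alone.

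HDAC2 was not low in these 14 cells. It stood at 51.0 CPM (32 UMIs), or 114% of control (77.7 to 162%), against 20.5 CPM (13 UMIs) in the 18 cells with gRNA3 alone, a ratio of 2.49 (1.27 to 5.17, counting error only). All 24 gRNA3 cells with another called gRNA had 39.3 CPM (41 UMIs), or 87.9% of control (62.7 to 120%). Of these UMIs, 32 came from the 14 cells. The same gRNA was thus called in cells with unlike HDAC2 levels, a contrast that rests on this set of 14 cells. The 14 cells also shared other levels, in genes chosen after the values were seen. CEACAM6, an adhesion molecule of epithelia, was in 12 of the 14 cells at 371 CPM, against 53.5 CPM with gRNA3 alone, from 2 of 18 cells, and 1.70 CPM with CTRL00637 alone, from 1 of 13 cells. UPK1B, a uroplakin, was in 13 of 14 cells at 143 CPM, and at 6.30 CPM with gRNA3 alone, also from 2 of 18 cells. PYCARD, the inflammasome adaptor ASC, was in 2 of 14 cells at 7.97 CPM, against 12 of 18 cells at 104 CPM with gRNA3 alone and 12 of 13 cells at 105 CPM with CTRL00637 alone.

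**Figure D5:**
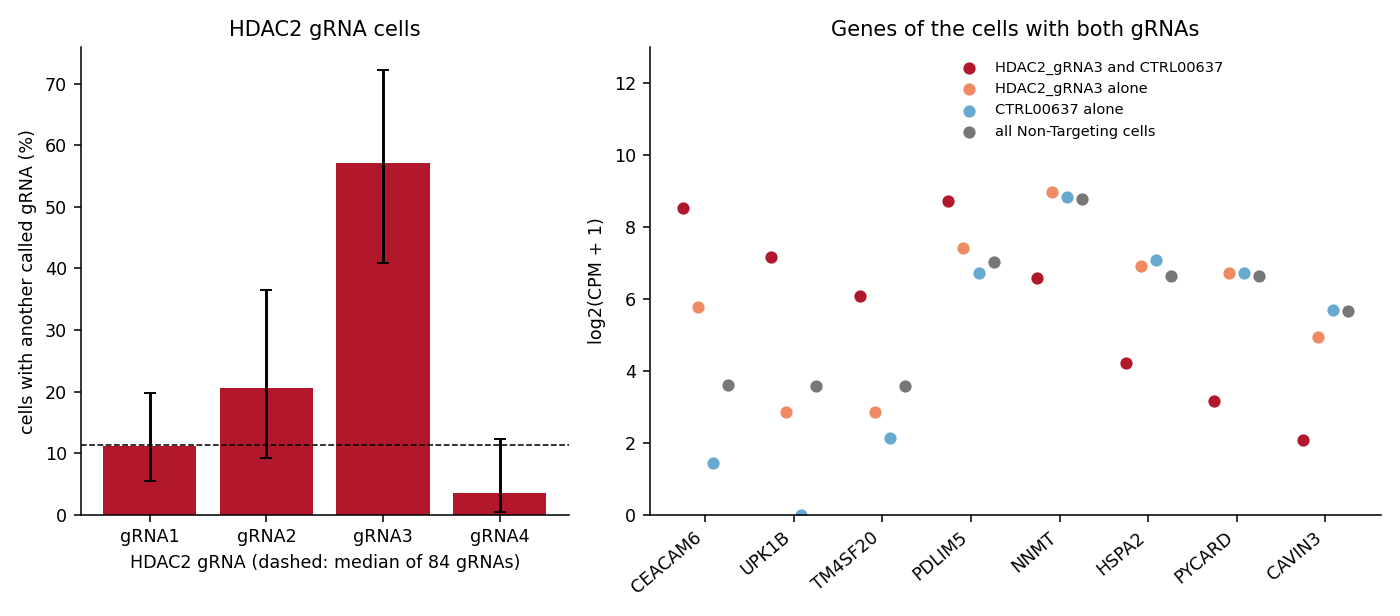
Left, share of the cells called for each HDAC2 gRNA that held another called gRNA (bars, percent, with exact 95% binomial intervals), with the median of 84 gRNAs dashed. Right, log2(CPM + 1) of 8 genes, chosen after their values were seen, in the 14 cells with only gRNA3 and CTRL00637, in cells with either gRNA alone and in all non-targeting cells. The share is 57.1% for gRNA3, and the cells with both gRNAs have the highest or the lowest value of each gene shown.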

How the data were processed

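The authors deposited a feature-by-cell matrix of UMI counts made with Cell Ranger 3.1.0 (per the file header) on GRCh38, holding 33538 genes and 120 gRNAs, and the deposited counts were used as they are. Their processing notes also name R 4.2.0 and Seurat 4.1.0. No column was left unmapped and no cell was removed for depth or by a doublet caller, but cells with 2 or more called gRNAs (286) or none (2269) were left out, which removes doublets of unlike gRNAs only.

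UMIs were summed per gRNA, and groups of at least 10 cells were fitted, which left out 5 non-targeting gRNAs with 19 cells. Non-targeting gRNA names repeat, so their identifiers were used. Genes kept by filterByExpr were tested with edgeR 4.0.16 (TMM, quasi-likelihood, robust) with Benjamini-Hochberg adjustment over all genes at 0.05, after the script was tested on simulated data. DESeq2 1.42.0, other normalizations, filters, gRNA calls (more than 10 UMIs, 80% of the gRNA UMIs, cells of at least 10000 UMIs), group sizes (20 or 5 cells) and leaving out each gRNA were alternatives. Exact permutation tests, Poisson and Clopper-Pearson intervals at 95% used SciPy 1.17.1. UMIs of 1 cell are not independent, so intervals cover counting error only.

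Members and gene lists were chosen with earlier results of these data known. Genes were named by rule: HDAC2, HDAC1 and HDAC3, all called genes, the 10 of lowest p on each side, the class I deacetylases and up to 4 members of lowest p per list. Genes of pooled ratios, without overlap and of cells with 2 gRNAs were chosen after their values were seen where they fall outside it.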

Additional observations from a re-analysis of the deposited data

Results flagged for a closer look

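In 5 of the 112 named genes 1 HDAC2 gRNA group lay far from the other 3, where chance alone sets 1 group apart in about 1 of 20 genes. TAGLN was at 121 CPM with gRNA4 and at 28.4 to 37.8 CPM with the other HDAC2 gRNAs. SUDS3 was at 61.4 CPM with gRNA3 and at 49.2 to 50.8 CPM with the others. CCNG1, a p53 target, was at 22.0 CPM with gRNA3 and at 40.9 to 42.7 CPM with the others. HSPA8, a constitutive chaperone, was at 601 CPM with gRNA3 and at 788 to 794 CPM with the others. BIRC5 was at 62.1 CPM with gRNA2 and at 96.2 to 97.6 CPM with the others. Among the cells left out of the comparison, 14 held HDAC2_gRNA3 and CTRL00637 and no other called gRNA, and the largest such set in the screen has 16 cells.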

How the results depend on the processing

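The lower HDAC2 level kept its direction under all 26 alternatives, with an unadjusted exact permutation p under 0.05 in 24. The difference was -0.24 (exact permutation p = 0.0545) with groups of at least 20 cells, which drop gRNA3 and keep 9 non-targeting groups. It ran from -0.56 to -0.22 when 1 gRNA was left out. The count of genes called against non-targeting groups, 0, became 1 (CD63) with the gRNA called by its 80% share and 2 (ANKRD30A and SNORC) with groups of at least 20 cells, and ran from 0 to 1 when 1 gRNA was left out. It was 0 under the other fits, including no filter on low counts and all gRNA groups in one fit. Between HDAC2 and HDAC1 gRNA groups it was 0 in all 18 alternatives. Among 23 genes followed through 14 alternatives each, the log2 fold change of HDAC1 reversed, to 0.016 with the 80% share, and ran from -0.054 to 0.084 when 1 gRNA was left out. The 310 genes beyond ± 0.5 in the pooled ratio became 7 with 10 CPM added, 724 as a mean over gRNA groups and 501 as a mean over cells. The median of the genes beyond HDAC2 was 0.066 over the 20 genes within 10 Mb. No paired analysis was possible because gRNA numbers only name gRNAs. There was 1 culture and gRNA3 had 18 cells, and SMTN at a log2 fold change of -0.997 missed the threshold (edgeR adjusted p = 0.111).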
